A study of Mus musculus with 2 samples.

Results

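The proteasome is the protease complex that degrades ubiquitin-tagged proteins in the cytosol and nucleus. Its genes were described in LT-HSCs, long-term blood stem cells of the bone marrow that renew the blood throughout life. The members were all genes whose symbol in the array annotation starts with Psm, a letter from a to g, and a digit. There were 48 such genes on 83 array rows, of 24171 named genes in all. Of these, 47 encode proteasome subunits, regulators or assembly factors. The remaining gene, Psmc3ip, encodes a partner of the meiotic recombinase and is counted apart.

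The study compared sorted marrow LT-HSCs of C57BL/6 mice, 8 weeks old, that were either wild type (WT) or knockout (KO) for cia-cGAS, a circular RNA according to the labels. Each genotype had 1 single-colour NimbleGen array, and neither the number of animals per array nor the allele is given in the sources used here. No difference below therefore has a replicate check, no test between groups was possible, and every value describes these 2 samples. The circular RNA was not analysed here, so the deletion could not be checked.

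The catalytic core of the proteasome, the 20S particle, is built from alpha rings and beta rings, and its cutting sites lie on the beta subunits Psmb5, Psmb6 and Psmb7. In cells exposed to interferon, and constitutively in many blood cells, Psmb8, Psmb9 and Psmb10 take their places and form the immunoproteasome, which alters the peptides made for display on MHC class I. The 19S cap recognises ubiquitin chains, unfolds substrates with its Psmc ATPases and feeds them into the core, whereas Psme1 and Psme2 form PA28, an alternative activator induced by interferon.

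Values are log2 intensities, and a difference is always KO minus WT. Each row of an array summarises 3 probes of a transcript, and each gene was represented by its brightest row, judged by the mean over both arrays. The detection floor was the 95th percentile of 1025 rows for olfactory, vomeronasal or taste receptors, which lay at 9.11 on the WT array and 8.97 on the KO array. Of the 47 proteasome genes, 41 were above the floor on both arrays, 1 in the WT alone and 5 on neither. As a yardstick from within the arrays, the pooled SD between rows that report on 1 gene was 0.37 over 2892 genes and 0.24 over the 13 proteasome genes with several detected rows. This spread reflects probes and transcripts, not animals. The row-to-row SD named below is always the 0.37 of all genes.

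The label was compared with marker genes of the sorted cells and of other marrow cells. Of 13 listed stem and progenitor genes measured, 9 were above the floor on each array. Kit read 12.12 in the WT and 12.42 in the KO, and Ly6a, which encodes Sca-1, 12.97 and 13.37. Procr and Slamf1, which mark LT-HSCs, were below both floors. Cd48 and Cd34, which mouse LT-HSCs are known to lack or hold at low level, were detected, at 11.45 and 11.34 for Cd48 and 12.24 and 11.73 for Cd34. Neutrophil and granule genes were detected as well: 13 of 15 were above the floor on each array, and S100a8 read 14.72 and 15.56.

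The proteasome genes as a set sat near the middle of all genes, but their role groups lay on different sides of 0. The median difference of the 41 genes detected on both arrays was 0.05, against -0.04 for the 9238 genes detected on both arrays, and 22 were higher and 19 lower in the KO. None was at least 2-fold higher, where 5.54% of 10852 genes above the floor on either array were. Psmg2 alone was at least 2-fold lower, where 4.06% of those genes were. At 1.5-fold, 3 proteasome genes were higher (Psma5, Psmb8 and Psmd10) and 3 lower (Psmd7, Psme3 and Psmg2), beside 11.6% and 12.3% of those genes. The counts of 3 among 42 genes lie below the share seen in all genes. By group, the median was 0.54 for the 5 immune subunits, 0.22 for 7 core alpha subunits, 0.14 for 7 constitutive core beta subunits, -0.34 for 6 cap ATPases and -0.06 for 13 other Psmd genes. No role group was tested against another.

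**Figure D1:**
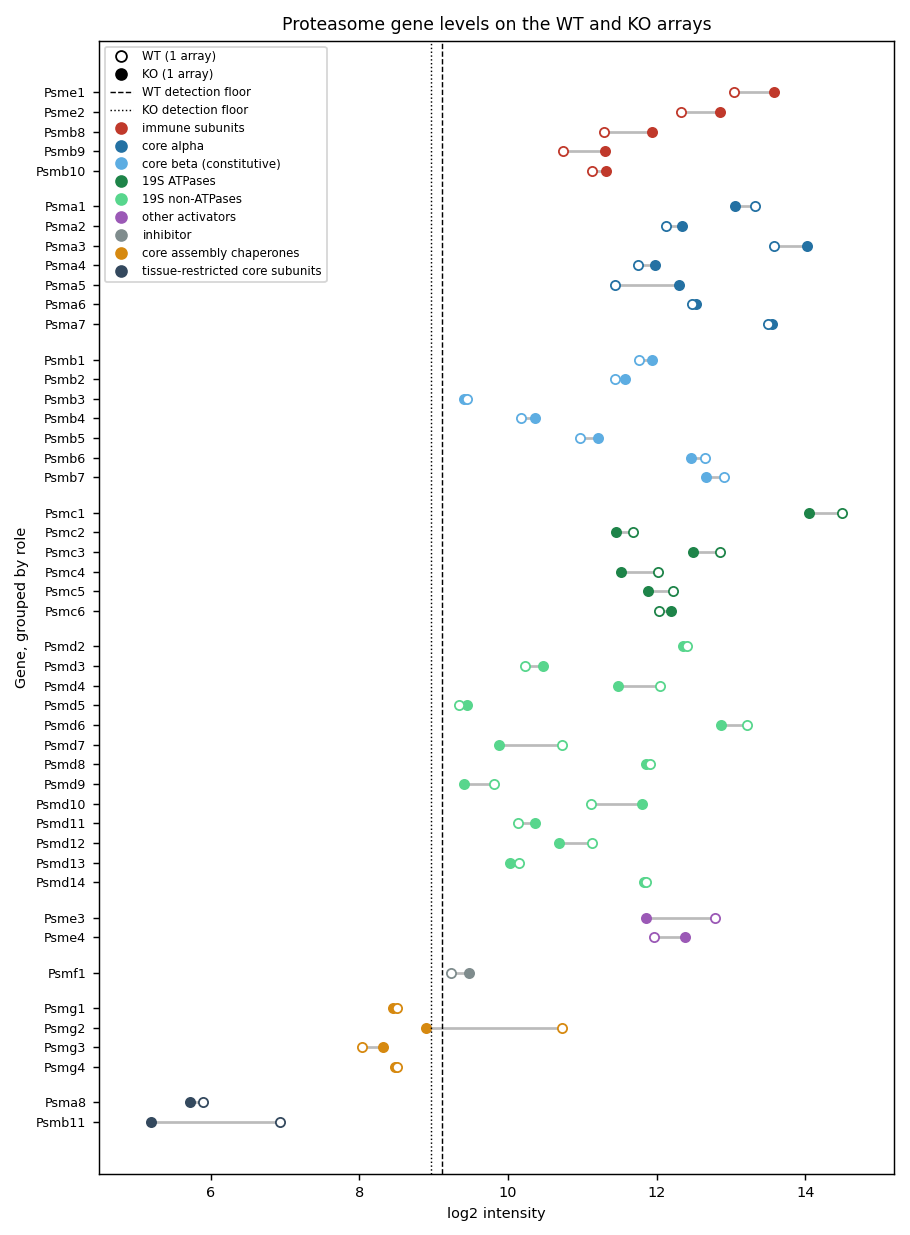
Log2 intensity (x axis) of each of the 47 proteasome genes (y axis, grouped by role) on the WT array (open circles) and the KO array (filled circles), 1 array each, with the detection floors as vertical lines. The filled circle lies to the right of the open one in all 5 immune subunits and to the left in 5 of 6 cap ATPases, and Psmg2 reads 10.73 on the WT array and lies just under the floor on the KO array.

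All 5 immune subunits were higher in the KO, by less than 2-fold, beside 46.4% of all 9238 genes detected on both arrays. Psmb8, also called LMP7, carries the chymotrypsin-like site of the immunoproteasome and read 11.29 in the WT and 11.94 in the KO, 1.57-fold higher. Its other row differed by 0.71 against 0.65 for the brighter row, so both rows placed it higher. Psmb9 (LMP2) replaces Psmb6 and read 10.74 in the WT and 11.31 in the KO, 1.48-fold higher. Psmb10 (MECL-1) replaces Psmb7 and read 11.14 and 11.32, a difference of 0.18 that is below the row-to-row SD.

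Both PA28 subunits were higher by similar amounts. Psme1 (PA28 alpha) read 13.04 in the WT and 13.58 in the KO, 1.45-fold higher. Psme2 (PA28 beta) read 12.33 and 12.85, 1.44-fold higher. A near-identical gene, Psme2b, is annotated in RefSeq, so probes of Psme2 could share signal with it. Thus 4 of the 5 immune genes exceeded the row-to-row SD, and Psmb10 did not. Of all 9238 genes detected on both arrays, 1741 were higher by more than that SD.

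The 4 immune genes that exceeded the row-to-row SD lie in a pair of neighbourhoods. They were picked by their differences, so their positions are only a description. In the annotation of the files, on the mouse MM9 assembly, the transcript of Psmb9 lies on chromosome 17 from 34319084 to 34324275 and that of Psmb8 from 34335315 to 34338391, inside the MHC. Tap1, the peptide transporter gene between them in RefSeq, read 10.88 in the WT and 11.73 in the KO, 1.79-fold higher. Other class I genes differed less, Tap2 by 0.34, within the row-to-row SD, and H2-K1 by -0.01. The transcripts of Psme1 and Psme2 lie on chromosome 14, from 56197310 to 56200365 and from 56206279 to 56209778. Psmb10 lies apart, on chromosome 8 from 108459639 to 108462006, and had the smallest difference of the 5.

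Promoter sequences of these neighbours are shown because Psmb9, Psmb8 and Psme1 were higher together. Psme2, higher by a similar amount to Psme1, is not shown, nor is Psmb10. They are RefSeq windows on GRCm38.p6, written 5′ to 3′ on the strand of the gene, from 200 bases before the annotated start to 25 after it. Capitals mark a match to a motif in the window.

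Psmb9 (chr17:34187306-34187530, minus strand): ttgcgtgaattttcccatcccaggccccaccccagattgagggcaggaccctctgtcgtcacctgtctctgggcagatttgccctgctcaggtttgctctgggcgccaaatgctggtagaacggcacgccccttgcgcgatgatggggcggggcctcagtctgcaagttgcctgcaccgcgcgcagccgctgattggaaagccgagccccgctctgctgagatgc
Psmb8 (chr17:34197995-34198219, plus strand): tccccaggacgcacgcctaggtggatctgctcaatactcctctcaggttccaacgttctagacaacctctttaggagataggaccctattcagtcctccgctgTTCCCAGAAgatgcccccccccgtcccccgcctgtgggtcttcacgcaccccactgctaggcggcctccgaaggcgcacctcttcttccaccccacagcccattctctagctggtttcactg
Psme1 (chr14:55578294-55578518, plus strand): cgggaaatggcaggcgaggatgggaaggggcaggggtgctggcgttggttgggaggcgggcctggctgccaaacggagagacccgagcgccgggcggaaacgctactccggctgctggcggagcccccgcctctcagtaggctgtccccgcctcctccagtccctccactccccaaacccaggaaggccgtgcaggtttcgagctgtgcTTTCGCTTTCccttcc

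The windows were searched on both strands, in the full 300 bases from 250 before to 50 after the start, for 3 motifs. The gamma activated site, TTCNNNGAA, was found in Psmb8, from position -97 to -89 relative to the start. The core of the interferon response element, GAAA and GAAA with any 2 bases between them, was found in Psme1 as its reverse complement, from base 10 to base 19 after the start. Psmb9 held neither motif in this window. RefSeq windows were matched for 39 of the 47 proteasome genes, 42 windows in all. Proteasome genes are counted below by gene and the background by window, so the shares differ in unit. A proteasome gene not named below either held no match or had no window. The interferon response core was present in 5 of the 39 (Psmb3, Psmd4, Psmd9, Psme1 and Psmg4) and in 3.44% of all 32851 windows. The gamma activated site was present in 3 (Psmb8, Psmd2 and Psmg1) and in 8.30% of all windows. The core of the antioxidant response element, TGACNNNGC, which NFE2L1 and NFE2L2 can bind, was present in 6 (Psmb5, Psmb6, Psmc6, Psmd12, Psmd9 and Psme4) and in 12.4% of all windows. The genes with the interferon core differed in both directions, Psmd4 by -0.57, Psmd9 by -0.41, Psmb3 by -0.04 and Psme1 by 0.54. Psmg4 was below both floors, and a match describes letters, not a bound site.

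The core alpha subunits, which form the outer rings and gate of the 20S particle, were mostly higher in the KO. Of 7 measured and detected genes, 6 had a positive difference, beside 46.4% of all 9238 genes detected on both arrays. Psma5 read 11.45 in the WT and 12.30 in the KO, 1.81-fold higher, the largest positive difference of any proteasome gene detected on both arrays, although it rests on 1 row. Psma3 read 13.58 and 14.02, 1.36-fold higher. Psma4 and Psma2 differed by 0.24 and 0.22, and Psma6 and Psma7 by 0.05 each, all within the row-to-row SD. Psma1 went the other way on its brightest row, from 13.32 to 13.05, but its other row went from 12.21 to 12.65. Its rows thus disagree in sign, and averaging them gave 0.09.

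The constitutive core beta subunits differed little. All 7 were detected and lay between -0.25 and 0.24, none beyond the row-to-row SD. Psmb1, Psmb2 and Psmb4, structural members of the inner rings, differed by 0.18, 0.14 and 0.19, and Psmb3 by -0.04. The catalytic subunit Psmb5 read 10.97 in the WT and 11.21 in the KO, while its other rows differed by -0.01 and 0.00. The catalytic subunit Psmb6 read 12.65 and 12.47, and Psmb7 read 12.91 and 12.67, lower in the KO by 0.19 and 0.25 on the log2 scale. A dim row of Psmb7 below both floors differed by 0.79. Averaging all rows of a gene therefore turned Psmb7 to 0.27, and the direction of Psmb7 depends on how rows were combined.

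Each immune catalytic subunit was then set against the subunit whose position it takes, by comparing the differences and not the levels. The difference of Psmb9 exceeded that of Psmb6 by 0.76, a 1.69-fold change in their ratio of intensities. For Psmb10 against Psmb7 the excess was 0.42, a 1.34-fold change, but Psmb10 itself differed little and the value rests as much on Psmb7. For Psmb8 against Psmb5 it was 0.41, a 1.33-fold change, and it ran from 0.41 to 0.73 over the rows of both genes. On the brightest rows the immune subunit had the higher difference in all 3 pairs. With all rows of a gene averaged, Psmb10 against Psmb7 turned to -0.09, since the dim row of Psmb7 then entered, and the other pairs were 0.60 and 0.76. The order among pairs has no error attached, since each genotype has 1 array. In addition, 2 of the 3 pairs rest on 1 detected row per gene.

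**Figure D2:**
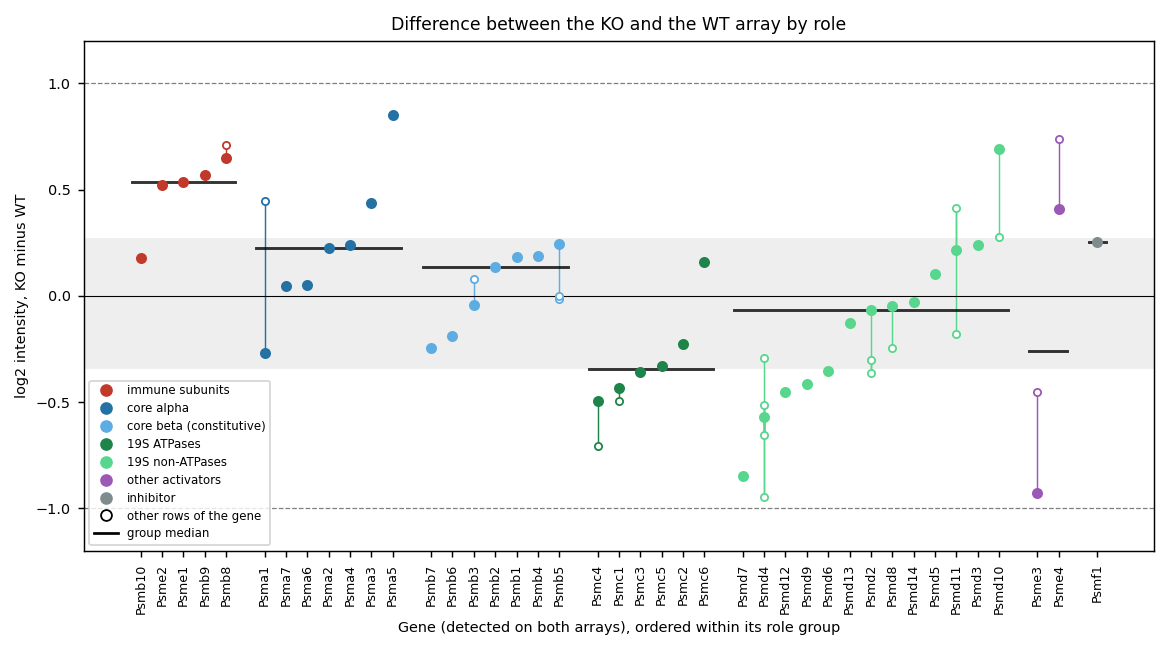
Difference in log2 intensity, KO minus WT (y axis), of the 41 proteasome genes detected on both arrays (x axis), with the row that stood for each gene (filled), other detected rows (open), group medians (black bars), the range of the middle 50% of all genes from -0.34 to 0.27 (grey band) and 2-fold (dashed lines). Of the 5 immune subunits 4 lie above the band, all 7 constitutive beta subunits lie inside it, and 3 of the 6 ATPases lie below it.

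The 19S cap was lower in the KO in most of its genes. Of 19 Psmc and Psmd genes measured, all detected on both arrays, 14 had a negative and 5 a positive difference, with a median of -0.23 and none past 2-fold. Over all genes detected on both arrays, 4285 were positive and 4952 negative. Below the middle 50% of all genes lay 8 of the 19, and above it 1. Psmd1, the large scaffold subunit, was not analysed here.

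The hexameric ATPase ring of the cap was lower in 5 of 6 genes. Psmc1 read 14.49 in the WT and 14.06 in the KO, and its other row differed by -0.50. Psmc4 had the lowest difference of the ring, from 12.01 to 11.52, a 1.41-fold lower level, with -0.71 on its other row. Psmc3, Psmc5 and Psmc2 differed by -0.36, -0.33 and -0.23. Psmc6 was the exception, from 12.04 to 12.20. Only Psmc1 and Psmc4 exceeded the row-to-row SD, and both did so on each of their rows. Lower by more than that SD were 2102 of all 9238 genes detected on both arrays.

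Among the other Psmd genes, a ubiquitin receptor and several lid subunits had the lowest differences. Psmd4 (Rpn10), which binds ubiquitin chains, read 12.05 in the WT and 11.48 in the KO, 1.48-fold lower. All 5 of its rows were detected and lower, from -0.95 to -0.29, the most rows behind any proteasome gene. Psmd7 (Rpn8), the lid partner of the deubiquitinase, read 10.73 and 9.89, 1.80-fold lower, but a dimmer row, above the floor in the KO alone, differed by 0.19. The lid subunits Psmd12 and Psmd6 differed by -0.45 and -0.35. The deubiquitinase subunit Psmd14 (Rpn11) differed by -0.03, and Psmd13 and Psmd8 by -0.13 and -0.05. The scaffold subunit Psmd2 was lower on all 3 rows, from -0.36 to -0.06. The lid subunits Psmd3 and Psmd11 were higher, at 0.24 and 0.22, although the detected rows of Psmd11 ran from -0.18 to 0.41.

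Psmd5, Psmd9 and Psmd10 are named with the cap but act as chaperones in assembling its ATPase ring. Psmd10, known as gankyrin, read 11.12 in the WT and 11.81 in the KO, 1.61-fold higher, with 0.28 on its other row. Psmd9 read 9.82 and 9.40, lower in the KO, and Psmd5 differed by 0.10, both genes lying near the floor. Without these 3 genes the cap had 13 of 16 genes lower and a median of -0.28.

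**Figure D3:**
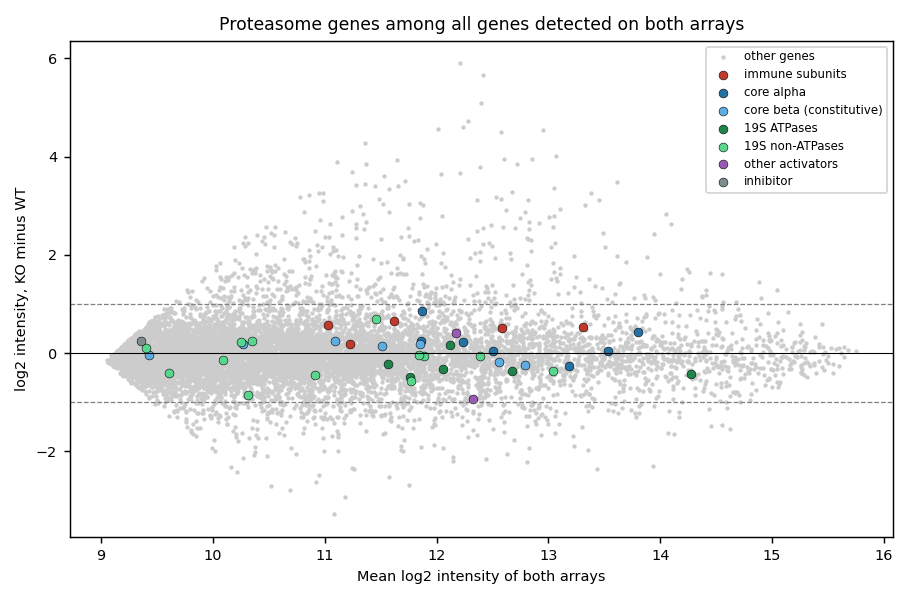
Difference in log2 intensity, KO minus WT (y axis), against the mean log2 intensity of both arrays (x axis) for all genes detected on both arrays (grey) and for the proteasome genes coloured by role, with 2-fold as dashed lines. The proteasome genes cover mean levels from 9.36 to 14.27 and all 41 lie between the dashed lines, while other genes reach 5.90.

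The remaining activators differed in opposite directions. Psme3 (PA28 gamma), which forms a nuclear activator of the same family, read 12.79 in the WT and 11.86 in the KO, 1.90-fold lower, with -0.45 on its other detected row. It had the lowest difference of all proteasome genes detected on both arrays. Psme4 (PA200), a large single-chain activator, read 11.97 and 12.38, 1.33-fold higher, with 0.74 on its other detected row. The dimmest row of Psme4, below both floors, differed by -0.89. Psmf1 (PI31), named as a proteasome inhibitor, read 9.23 and 9.48.

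The assembly chaperones of the core were dim, except for Psmg2. Psmg2 (PAC2), which pairs with Psmg1 to build the alpha ring, read 10.73 in the WT and 8.89 in the KO, just under the floor there. It was thus at least 3.38-fold lower, on 1 row. With the floor at the 99th percentile of the receptor rows, the bound was -0.61 on the log2 scale, short of 2-fold. Psmg1, Psmg3 and Psmg4 were below both floors. The rows of Psmg4 differed from -0.69 to 0.94 at those levels, so they give no direction. Of the core subunits known from single tissues, Psma8 of the testis read 5.90 in the WT and 5.72 in the KO, and Psmb11 of the thymus read 6.94 and 5.20, all far under the floors. Genes under both floors have no fold.

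Psmc3ip, which shares only its name with the ATPase gene Psmc3, read 10.54 in the WT and 9.10 in the KO. It was 2.71-fold lower, further from 0 than any proteasome gene detected on both arrays.

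Genes that work beside the proteasome showed no common direction. Of 13 partner genes measured, 6 were higher and 7 lower, with a median of -0.05, 1 at least 2-fold higher and 1 at least 2-fold lower. Pomp, the core maturation factor, read 12.65 in the WT and 13.02 in the KO. The cap-bound factors Adrm1, Uchl5 and Usp14 differed by -0.42, -0.36 and -0.29, and Sem1, a small lid subunit, by 0.23. Nfe2l2, a stress transcription factor, read 10.83 and 11.99, 2.22-fold higher. Nfe2l1, the factor that restores proteasome genes after inhibition, read 13.62 and 13.09, 1.45-fold lower. Ubxn1, a ubiquitin-binding cofactor, read 13.70 and 12.41, 2.44-fold lower.

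Genes of ubiquitin supply and of the shuttles that bring substrates to the cap were mostly lower, by small amounts. Of 13 detected genes, 11 were lower and 2 higher, with a median of -0.15 and none past 2-fold. The shuttle gene Ubqln1 read 12.03 in the WT and 11.30 in the KO, 1.66-fold lower, whereas Rad23b differed by -0.04. The ubiquitin gene Ubb differed by -0.11, at a level near the top of the scale where differences can be compressed.

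The steps after the proteasome in class I presentation were mixed, with 8 genes higher and 6 lower of 14 detected on both arrays and a median of 0.19. Higher in the KO were Tap1, Tapbp (tapasin, 1.69-fold), Tapbpl (1.55-fold) and Npepps, a cytosolic aminopeptidase that was 2.08-fold higher. H2-K1 and H2-D1, the class I heavy chains, differed by -0.01 and 0.05, and B2m, their light chain, by 0.33. H2-D1 and B2m read above 15 on both arrays, near the top of the scale. The general chaperones Canx and Pdia3 were lower, by -0.76 and -0.43.

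Interferon regulators and targets had a far larger median difference than any proteasome group, although single members such as Irf9, at 0.46, lay within the range of the proteasome genes. All 13 detected on both arrays were higher, 12 of 14 genes at least 2-fold including bounds, and the median was 2.87. Irf1, a direct regulator of Psmb9 and Tap1, read 11.36 in the WT and 12.08 in the KO, 1.64-fold higher. Gbp2 was 14.4-fold higher and Cxcl10 59.7-fold, against 1.57-fold for Psmb8, the largest among the immune subunits.

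**Figure D4:**
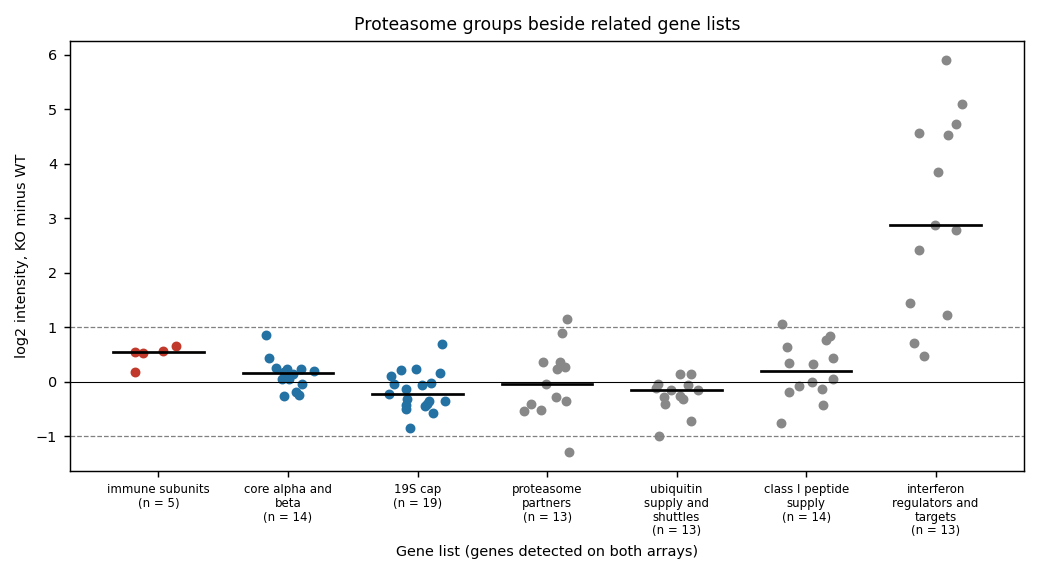
Difference in log2 intensity, KO minus WT (y axis), of genes detected on both arrays in 3 proteasome groups and 4 related lists (x axis), with each point a gene, black bars as medians and dashed lines at 2-fold. The immune subunits have a median of 0.54 beside 2.87 for interferon regulators and targets, and the cap lies at -0.23.

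Markers of other marrow cells also differed between the arrays. Immune subunits are abundant in mature blood cells, and in bulk samples a change in the number of such cells and a change of RNA per cell cannot be told apart. Of 13 detected neutrophil genes, 12 were higher in the KO, with a median of 0.32, and the summed intensity of the 15 measured was 171702 in the WT and 220201 in the KO. Of 9 monocyte and macrophage genes detected on both arrays, 6 were higher and 3 lower, with a median of 0.46, and the sum of the 11 measured was 80649 and 106768. A sum weights its brightest genes most. Ctss, with the highest difference of those 9 genes, read 13.44 in the WT and 14.95 in the KO. Among the neutrophil genes S100a8 read 14.72 and 15.56, whereas S100a9 read 15.37 and 15.39. B lineage genes were lower in all 4 genes detected on both arrays, with a median of -2.22 and sums of 17933 and 3662 over 11 genes. Erythroid genes were lower in all 8, with a median of -0.79 and sums of 109920 and 86727 over 11 genes. Of 5 T and NK genes 2 were higher, with a median of -0.10 and sums of 19563 and 10473 over 10 genes. Without Cd2 the sums of the other 9 were 5668 and 6091. Of the dendritic markers Bst2 alone was detected on both arrays, at 0.31, with sums of 2350 and 3448 over 5 genes. Below both floors were 2 of 15 neutrophil, 0 of 11 monocyte, 4 of 11 B lineage, 2 of 11 erythroid, 2 of 10 T and NK and 2 of 5 dendritic genes, and sums include such genes. The part of these cells in the differences of the proteasome genes was not tested.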

How the data were processed

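The deposited files hold linear intensities, 1 per transcript row of 3 probes, summarised by RMA (robust multi-array average) per the submitters' processing notes, with no version. Per the labels' protocols, total RNA was primed with oligo dT and labelled with Cy3. RMA as generally defined equalises the distributions of arrays, so differences are relative to other genes, and the set of arrays it was run on is not stated. The series-wide table of the same intensities, also deposited, served as an alternative.

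Intensities were put on the log2 scale without further normalization (Python 3.11.15, pandas 2.3.3). Symbols were updated by gene ID with a RefSeq table of GRCm38.p6. Row choice, floor and folds (2-fold, also 1.5-fold and 3-fold) are as stated in the results. A gene above the floor on 1 array has only a bound against the floor of the other. With 1 array per group no test was run and precision is limited by the number of arrays. The code was tested on simulated data. Members, motifs and gene lists were chosen with earlier results of these data known. Named were the immune subunits and their counterparts, the extremes of each role group, genes past 2-fold, genes whose rows disagree in sign, Psma8 and Psmb11; other members were named after their values were seen. Values of some listed genes are not reported here.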

Additional observations from a re-analysis of the deposited data

How the results depend on the processing

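Other floors, averaged rows, centring on a loess curve (span 0.3), the series-wide table and means in place of medians were tried, as were, chosen after seeing the data, the mean of detected rows and smaller groups. Group values ran from 0.49 to 0.59 for the immune subunits, from 0.22 to 0.26 for core alpha and from 0.04 to 0.18 for core beta. They ran from -0.28 to -0.18 for the cap and from -0.03 (no floor) to 0.11 for all proteasome genes. The ends at 0.49, 0.04 and -0.18 are group means, and the other ends are medians. The 0 genes at least 2-fold higher became 3 at 1.5-fold. The 1 gene at least 2-fold lower became 3 at 1.5-fold, 0 with the floor at the 99th percentile and 2 with no floor. Of 287 values of single members under alternatives, 3 moved by more than 0.37, the row-to-row SD of all genes: Psmb7 (0.27) and Psmd7 (-0.33) with rows averaged, and Psmg2 (-0.61) with the higher floor. Signs turned for Psma1, Psmb2, Psmb7 and Psmd8 with all rows averaged, for Psma1 and Psmb3 with detected rows averaged, and for Psmb3 and Psmd14 after loess centring. No paired analysis was possible because each group has 1 array. Genes near the floor have the least signal over background.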
